A study of Mus musculus with 6 samples.

Results

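Cytochrome P450 genes were followed on 6 single-colour Affymetrix mouse arrays as every probe set annotated alone to a gene whose symbol has the form Cyp, number, letters, number. This gave 93 probe sets of 70 genes, out of 45101 probe sets and 18193 genes that at least 1 probe set names alone. Each array carried RNA of early erythroid progenitors, which are red cell precursors, from livers of fetuses aged 13.5 days; the cells were sorted after staining with 7AAD, anti-CD71 and Ter119, and 10 µg of RNA was used. Of the arrays 3 carry the label Eklf -/- and 3 the label wild-type, from independent RNA samples, and all 6 give the strain as C57BL/6; how many livers went into a sample is not given in the sources used here. Eklf, gene symbol Klf1, encodes an erythroid transcription factor, and the knockout allele was built from a genomic clone of strain 129 according to the labels. Embryos without this factor have severe anaemia, and the comparison asks how the progenitors differ when it is lost.

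Cytochrome P450 enzymes are haem proteins that insert an oxygen atom into lipids, steroids, bile acid precursors and foreign compounds. Those of the endoplasmic reticulum take electrons from P450 reductase and cytochrome b5, and those of mitochondria take them from ferredoxin. The numbered families differ in substrate: families 1 to 3 act largely on foreign compounds, family 4 on fatty acids and eicosanoids, and the higher numbers mostly on steroids, bile acids, retinoids and vitamin D. In the liver the hepatocyte is their main site, and blood cells use few of them.

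Klf1 gave signals of 3505, 1391 and 2545 on the knockout-labelled arrays and of 2508, 2706 and 4030 on the wild-type-labelled arrays. The groups overlapped, and the knockout minus wild-type difference was -0.38 ± 0.32 on the log2 scale (SE, limma, adjusted p = 0.347), although after median centring the gene was called lower (-1.20, adjusted p = 0.0128). Where its probe set lies relative to the deleted part is not given in the sources used here, so the value does not check the labels, and groups are named by label. The median signal over all probe sets was 204 to 218 on the knockout-labelled arrays and 97.7 to 140 on the wild-type-labelled arrays, although each array had been scaled to the same trimmed mean of 500. The summed signal of 7 erythroid markers was 59438 to 82550 on the knockout-labelled arrays and 21327 to 23115 on the wild-type-labelled arrays. Sums of 9 neutrophil genes, a list added after the values were seen, were higher, at 96342 to 200829 and 181861 to 211092. The purity of the sorted cells was not tested. Of the 7 erythroid markers 6 rose while Kit fell, where 27.9% and 20.8% of all genes tested did. After median centring 4 erythroid markers rose and Kit fell, where 8.48% and 47.9% of all genes did. As deposited, Alas2 rose by 3.93, Rhag by 1.99, Slc4a1 by 1.92, Gata1 by 1.89, Epor by 1.49 and Tfrc by 0.47 on the log2 scale. Kit fell by 1.73. Hepatocyte markers were present as well: their summed signal over 10 genes was 92276 to 156939 on the knockout-labelled arrays and 7771 to 8407 on the wild-type-labelled arrays.

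Most Cyp genes were dim. Only genes with a mean log2 signal at or above 6.62, a signal of 98.6, were tested, and 28 Cyp genes passed this filter while 42 did not. The highest Cyp signal on any array was 1576, from Cyp20a1. The median signal of the 93 probe sets was 108, 112 and 95.5 on the knockout-labelled arrays, against 58.3, 60.3 and 45 on the wild-type-labelled arrays. The knockout-labelled mean log2 signal was the higher one for 78 of the 93 probe sets and the lower one for 15.

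Of the 28 tested Cyp genes 17 rose on the knockout-labelled arrays, 2 fell and 9 did not pass the test (limma, Benjamini-Hochberg adjusted p under 0.05). Over all 12799 genes tested, 27.9% rose and 20.8% fell, 48.7% in all. The groups did not overlap for 19 Cyp genes with higher and 2 with lower knockout-labelled signals, where 34.1% and 25.2% of all genes tested were separated in these directions. By probe set, 18 of 30 rose and 2 fell, where 28.1% and 15.7% of all probe sets did. In bulk samples such as these, fewer cells of a type and less RNA per cell cannot be told apart.

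The share of risen genes depended on brightness. When all tested genes were divided by mean signal into 4 bins of equal size, 44.6% rose and 5.72% fell in the dimmest bin, where 12 of 20 Cyp genes rose and 1 fell. In the second bin 35.1% of all genes rose and 14.2% fell, and 5 of 7 Cyp genes rose. In the third bin 16.8% rose and 27.9% fell, and it held 1 Cyp gene, Cyp20a1, which fell. The brightest bin, where 15.1% rose and 35.3% fell, held no Cyp gene. The median log2 difference of the tested Cyp genes was 1.21, beside 0.14 over all genes tested and 0.94 over the dimmest bin. For 10 of the 17 risen genes the wild-type-labelled mean log2 signal lay under the filter, so they passed it through the knockout-labelled arrays. These were Cyp1b1, Cyp2b10, Cyp2c39, Cyp2c68, Cyp2d22, Cyp2e1, Cyp2s1, Cyp4f15, Cyp7a1 and Cyp11b1. The count is therefore a description and not support for a rise of the family.

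**Figure D1:**
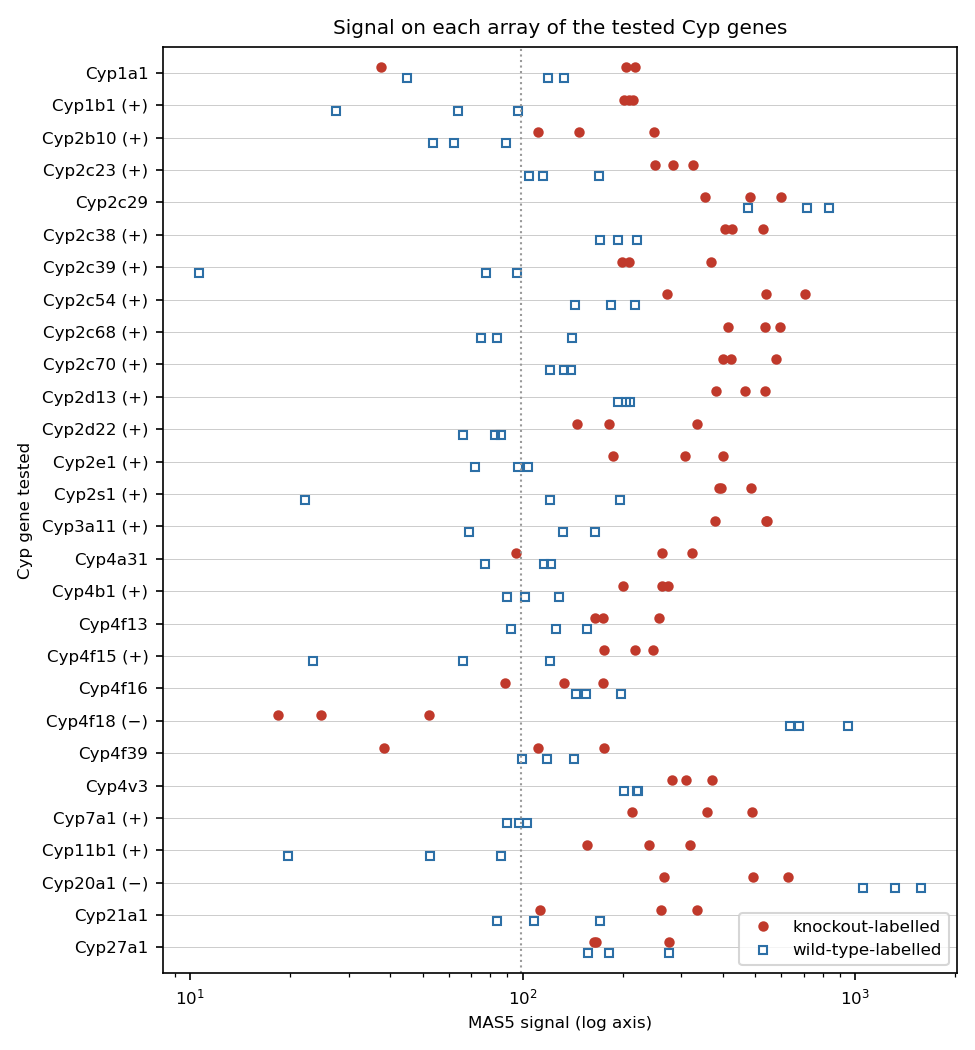
MAS5 signal (x axis, log scale) of each tested Cyp gene (y axis) on every array, with filled circles for the 3 knockout-labelled arrays and open squares for the 3 wild-type-labelled arrays. A plus or minus after a name marks a gene called higher or lower on the knockout-labelled arrays, and the dotted line marks the filter at a signal of 98.6. Cyp4f18 and Cyp20a1 are the 2 genes whose knockout-labelled signals lie below all wild-type-labelled signals.

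Scaling changed how many Cyp genes passed. With quantile normalization 7 Cyp genes rose and 3 fell, where 17.6% and 21.1% of all genes did. With cyclic loess 6 rose and 3 fell, where 17.9% and 20.8% of all genes did. With median centring 8 rose and 4 fell, where 8.48% and 47.9% of all genes did. Cyp2c68, Cyp2c70, Cyp3a11 and Cyp7a1 rose in all 3 of these scalings, and Cyp4f18 and Cyp20a1 fell in all 3. Median centring itself moved the median of all tested genes to -0.68, while the other scalings left it between -0.015 and 0.0038.

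**Figure D2:**
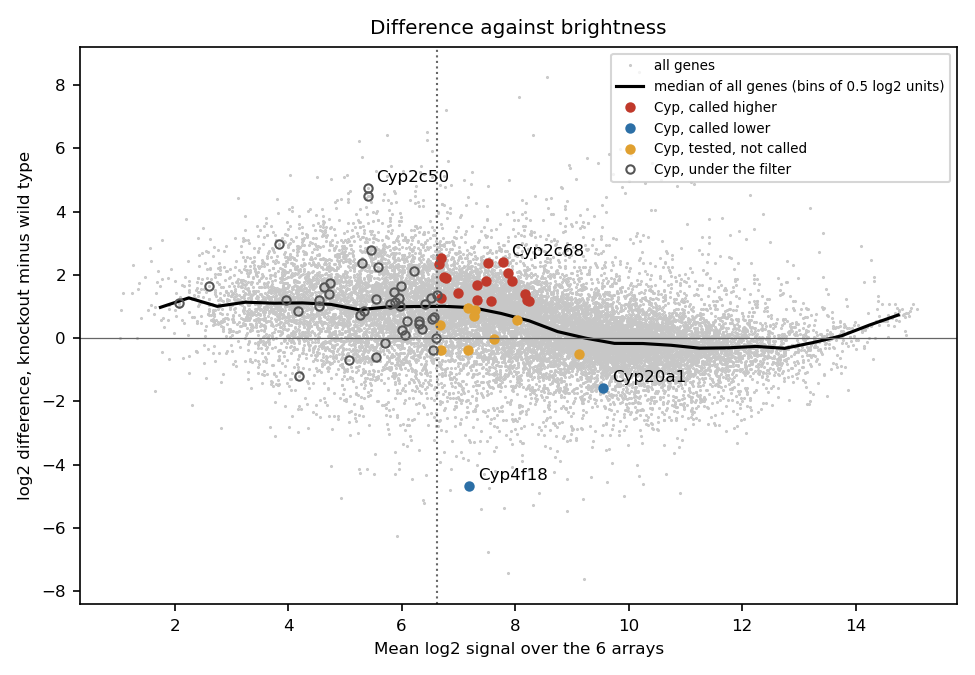
Log2 difference, knockout minus wild type (y axis), against the mean log2 signal over the 6 arrays (x axis) for all genes in grey and for the 70 Cyp genes as circles coloured by call. The black line is the median of all genes in bins of brightness and the dotted line is the filter at 6.62. The black line runs above 0 on the dim side, where most Cyp genes lie.

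The Cyp2c genes, oxidases of drugs and arachidonic acid, held the largest group of risen members. All 11 followed here lie on chromosome 19. Of the 7 tested, 6 rose and 1 did not pass, beside 27.9% of all genes tested and 44.6% and 35.1% in the dimmest and second bins of brightness, where they lie. Cyp2c68 gave 535, 415 and 593 on the knockout-labelled arrays and 74.8, 141 and 83.9 on the wild-type-labelled arrays. The groups did not overlap, and the geometric mean, used for all folds here, was 5.3-fold higher (log2 difference 2.41 ± 0.32, SE, limma adjusted p = 0.000381). Cyp2c70, which in mouse makes the muricholic bile acids, gave 576, 422 and 400 on the knockout-labelled arrays and 140, 121 and 133 on the wild-type-labelled arrays. It was 3.51-fold higher (1.81 ± 0.26, limma adjusted p = 0.000561), and its lowest knockout-labelled signal was well above the highest wild-type-labelled one.

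Cyp2c39, a retinoic acid hydroxylase, was 5.77-fold higher (log2 difference 2.53 ± 0.78, limma adjusted p = 0.0236), with wild-type-labelled signals as low as 10.6, on array 3. Without that array the difference was 1.52 (adjusted p = 0.0164). Cyp2c54 rose by 1.39 ± 0.36, Cyp2c38 by 1.22 ± 0.24 and Cyp2c23, an epoxygenase of arachidonic acid, by 1.16 ± 0.30 on the log2 scale. The calls of Cyp2c23 and Cyp2c54 were lost in all 3 scalings (adjusted p 0.0738 to 0.376), that of Cyp2c38 after median centring (0.236), and that of Cyp2c39 with quantile normalization and cyclic loess (0.0764 and 0.0809).

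Cyp2c29, a drug-inducible form of adult liver, had the highest mean signal of the subfamily over the 6 arrays (578), while on the knockout-labelled arrays Cyp2c68 had the higher mean, and it was the 1 tested member that did not pass. It gave 484, 354 and 598 on the knockout-labelled arrays and 719, 476 and 837 on the wild-type-labelled arrays. The groups overlapped, and the log2 difference of -0.50 ± 0.27 did not pass (limma adjusted p = 0.161). After median centring it was called lower (-1.31, adjusted p = 0.00409).

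In RefSeq's gene order Cyp2c50 lies between Cyp2c54 and Cyp2c70. It was named after its values were seen. Its probe set gave 193, 238 and 229 on the knockout-labelled arrays, and 15.7, 6.13 and 5.62 on the wild-type-labelled arrays, so its mean fell under the filter. In a fit with no filter its log2 difference was 4.75 ± 0.59 (limma adjusted p = 0.000341), the largest rise of the 70 Cyp genes there, from dim wild-type-labelled signals. Paralogues of this cluster are alike in sequence, and whether a probe set of 1 gene also takes up transcripts of its neighbours was not tested. Of the 93 probe sets 6 carry the suffix _s_at and 4 the suffix _x_at, which Affymetrix gives to probe sets whose probes match more than 1 transcript.

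Cyp3a11, the main drug-oxidising Cyp3a form of adult mouse liver, gave 544, 379 and 541 on the knockout-labelled arrays and 132, 165 and 68.9 on the wild-type-labelled arrays. It was 4.2-fold higher (log2 difference 2.07 ± 0.36, limma adjusted p = 0.00162), with no overlap between the groups. The other 4 Cyp3a genes were under the filter. Cyp3a16, the form known from fetal mouse liver, gave 10.3, 3.58 and 6.62 on the knockout-labelled arrays and 2.24, 2.93 and 3.63 on the wild-type-labelled arrays, the dimmest of all 93 probe sets by mean signal. Cyp3a13 stood at 97.7 ± 21.1 on the knockout-labelled arrays and 41.7 ± 13.6 on the wild-type-labelled arrays (SD, n = 3 each) and was not tested.

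The promoters of Cyp2c68, Cyp2c70 and Cyp3a11 are shown because these genes rose in every scaling and because each holds the letters CAAAGTCCA, a motif of the hepatocyte factor Hnf4a. The motif was chosen after these promoters were read and was searched on both strands of the 250 bases before each RefSeq gene start. It was found for 6 of 51 Cyp genes with a promoter entry, for 3 of the 11 risen ones, and for 122 of all 27025 genes, or 0.451%. Because the motif was picked from 3 of these same promoters, the shares follow from that choice and do not measure enrichment. Each sequence runs 5′ to 3′ on the strand of its gene in build GRCm38.p6, with the motif in capitals.
Cyp2c68 promoter, chr19:39741102-39741351, minus strand: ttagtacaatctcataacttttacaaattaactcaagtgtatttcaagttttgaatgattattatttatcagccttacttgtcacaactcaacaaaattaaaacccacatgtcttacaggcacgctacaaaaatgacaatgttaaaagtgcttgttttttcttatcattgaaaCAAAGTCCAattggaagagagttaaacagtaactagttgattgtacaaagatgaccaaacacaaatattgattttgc
Cyp2c70 promoter, chr19:40187287-40187536, minus strand: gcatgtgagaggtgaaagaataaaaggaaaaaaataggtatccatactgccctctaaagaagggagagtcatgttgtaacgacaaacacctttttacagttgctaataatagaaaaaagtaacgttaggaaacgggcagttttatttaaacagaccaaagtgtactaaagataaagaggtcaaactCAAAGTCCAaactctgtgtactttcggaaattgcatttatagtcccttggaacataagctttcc
Cyp3a11 promoter, chr5:145879855-145880104, minus strand: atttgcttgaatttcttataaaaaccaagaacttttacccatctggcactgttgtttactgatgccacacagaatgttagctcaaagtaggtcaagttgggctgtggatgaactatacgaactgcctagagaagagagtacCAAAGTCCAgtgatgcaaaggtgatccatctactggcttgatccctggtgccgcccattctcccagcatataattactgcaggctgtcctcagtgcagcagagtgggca
The match starts 77 bases before the start of Cyp2c68, 64 before that of Cyp2c70 and 109 before that of Cyp3a11, and it is a description of letters and not of binding. It was also found at Cyp8b1, Cyp2c65 and Cyp3a16, which were under the filter. Hnf4a itself gave 1171, 673 and 1065 on the knockout-labelled arrays and 246, 309 and 206 on the wild-type-labelled arrays, which amounts to a rise of 1.91 ± 0.26 on the log2 scale (limma adjusted p = 0.000484). Its part in the Cyp results was not tested.

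Among the other genes of family 2, Cyp2e1, which oxidises ethanol and acetone, gave 187, 308 and 401 on the knockout-labelled arrays and 97.1, 104 and 72.1 on the wild-type-labelled arrays. All knockout-labelled signals were above the wild-type-labelled ones, with a log2 difference of 1.66 ± 0.37 (limma adjusted p = 0.00557). Cyp2d13 rose by 1.17 ± 0.23 and Cyp2s1, a form found in epithelia, by 2.38 ± 0.68. The dim second probe set of Cyp2d13 gave 0.65 with overlapping groups and was not tested. Cyp2b10, the form induced by phenobarbital, rose by 1.26 ± 0.45 with an adjusted p of 0.0413, and this call was lost in 7 of 15 alternatives. Its other probe sets were under the filter and gave 0.39 and 0.47, with overlapping groups. The rise of Cyp2b10 therefore rests on its brightest probe set alone, which carries the suffix _s_at. The calls of Cyp2e1 (adjusted p 0.0615 to 0.076) and Cyp2b10 (0.416 to 0.533) were lost in all 3 scalings, that of Cyp2d13 after median centring (0.296) and that of Cyp2s1 after cyclic loess (0.0542). Without knockout-labelled array 3 the calls of Cyp2s1 (adjusted p = 0.0586) and Cyp2b10 (0.0694) were lost, and without wild-type-labelled array 1 or 3 that of Cyp2b10 (0.124 and 0.0833). Cyp2s1 gave 1.45 without wild-type-labelled array 3, where its signal was 22.2, and 3.03 without wild-type-labelled array 2.

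Cyp2d22 was read by a pair of probe sets above the filter, and both were higher on the knockout-labelled arrays. The one with the higher mean log2 signal gave 335, 181 and 145 on the knockout-labelled arrays and 66.3, 82.4 and 85.9 on the wild-type-labelled arrays, which is 1.41 ± 0.41 higher on the log2 scale (limma adjusted p = 0.0181). The other gave 426, 379 and 372 on the knockout-labelled arrays and 21.7, 44.5 and 21.4 on the wild-type-labelled arrays, a difference of 3.84 ± 0.43 in the fit over all probe sets (limma adjusted p = 0.000255). The knockout-labelled signals lay above all wild-type-labelled ones on both. The call of the first was lost in all 3 scalings (adjusted p 0.258 to 0.351), without knockout-labelled array 1 (0.0613) and without wild-type-labelled array 1 (0.0588). Without wild-type-labelled array 3 the other probe set stood for the gene, at 3.66.

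Family 1 holds the targets of the aryl hydrocarbon receptor. Cyp1b1, which oxidises oestradiol and aromatic hydrocarbons, gave 208, 202 and 215 on the knockout-labelled arrays and 63.9, 96.7 and 27.4 on the wild-type-labelled arrays. It rose by 1.91 ± 0.50 on the log2 scale (limma adjusted p = 0.0116), a call lost with quantile normalization and cyclic loess (adjusted p = 0.0746 and 0.079), and its 2 dimmer probe sets gave 0.78 and 0.07. Cyp1a1 gave 204, 217 and 37.4 on the knockout-labelled arrays and 133, 119 and 45 on the wild-type-labelled arrays. The groups overlapped, and its difference of 0.41 ± 0.73 did not pass (adjusted p = 0.663) and was below 0 in all 3 scalings and without wild-type-labelled array 3 (-0.085), and 1.24 without knockout-labelled array 3. Cyp1a2 was under the filter, at 58.9 ± 29.2 on the knockout-labelled arrays and 35.4 ± 20.8 on the wild-type-labelled arrays (SD, n = 3 each).

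Bile acid synthesis is carried by families 7, 8, 27 and 39. Cyp7a1, the rate-limiting enzyme of the classical pathway, gave 214, 488 and 358 on the knockout-labelled arrays and 89.5, 97.4 and 103 on the wild-type-labelled arrays. It was 3.46-fold higher (log2 difference 1.79 ± 0.35, limma adjusted p = 0.00317) without overlap. Its dim second probe set gave 2.09 and was not tested. Cyp27a1, the mitochondrial sterol hydroxylase of the alternative pathway, gave 164, 166 and 275 on the knockout-labelled arrays and 182, 157 and 276 on the wild-type-labelled arrays. The groups covered the same range, with a difference of -0.03 ± 0.34 (adjusted p = 0.953), and its sign changed between settings.

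Cyp7b1, the oxysterol hydroxylase, was under the filter with all 3 of its probe sets. Its brightest gave 101, 94.5 and 95.8 on the knockout-labelled arrays and 33.5, 45.7 and 28.8 on the wild-type-labelled arrays. Cyp8b1, which sets the share of cholic acid, gave 135, 137 and 155 on the knockout-labelled arrays and 78.5, 112 and 23.2 on the wild-type-labelled arrays. Both separated the groups, and Cyp39a1, which acts on a hydroxycholesterol, overlapped at 99.9 ± 40.2 on the knockout-labelled arrays and 65.9 ± 7.97 on the wild-type-labelled arrays (SD, n = 3 each).

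Family 4, the fatty acid hydroxylases, had 8 tested genes, of which 2 rose, 1 fell and 5 did not pass, near the 27.9% and 20.8% of all genes. Cyp4f18, which inactivates the leukotriene B4 of neutrophils in mouse, gave 18.4, 52.2 and 24.8 on the knockout-labelled arrays and 639, 677 and 953 on the wild-type-labelled arrays. It was 25.8-fold lower on the knockout-labelled arrays (log2 difference -4.69 ± 0.43, limma adjusted p = 5e-05). Its second probe set was dim and gave 12.6, 30.3 and 21.2 on the knockout-labelled arrays and 22.1, 6.8 and 13.8 on the wild-type-labelled arrays, an overlap with a difference of 0.66, so the fall rests on 1 of its 2 probe sets. A difference this low or lower was seen for 14 of the 12799 genes, or 0.109%. The knockout-labelled signals lay under the filter, so the fold rests on dim values, and the call held in all 15 alternatives in which the gene was tested.

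Markers of B cells and neutrophils were read beside Cyp4f18. The summed signal of 3 B lineage markers was 215 to 396 on the knockout-labelled arrays and 11736 to 21120 on the wild-type-labelled arrays. All 3 fell. A list of neutrophil genes, added after the values were seen, gave sums of 96342 to 200829 on the knockout-labelled arrays and 181861 to 211092 on the wild-type-labelled arrays, which overlapped. Of its 9 tested genes 6 fell, where 20.8% of all genes did. Under the 3 scalings 5 to 9 fell, where 20.8% to 47.9% of all genes did. As deposited, Ltf, lactoferrin, fell by 1.98 and Ctsg, cathepsin G, by 1.40 on the log2 scale. Mpo, myeloperoxidase, S100a8 and S100a9 did not pass, at 0.02, 0.10 and 0.22. The part of these cells in the Cyp4f18 result was not tested. Cyp4f18 lies on chromosome 8, as do Klf1 and Cyp4v3, a gene that gave 0.57 and did not pass (limma adjusted p = 0.0747). A part of this position in the result was not tested. The other 5 Cyp4f genes followed here lie on chromosome 17.

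Of those others, Cyp4f15 rose by 1.88 ± 0.58 on the log2 scale (limma adjusted p = 0.0237), a call lost in 6 of 17 alternatives, among them all 3 scalings (adjusted p 0.103 to 0.199), and without knockout-labelled array 1 (0.0588) or 2 (0.0741) or wild-type-labelled array 1 (0.0546), where its difference was 1.24. Cyp4b1, a fatty acid hydroxylase of lung and other epithelia, rose by 1.21 ± 0.32 (adjusted p = 0.0119), a call lost in all 3 scalings (adjusted p 0.327 to 0.351). Cyp4f16 gave 174, 133 and 88.7 on the knockout-labelled arrays and 198, 155 and 144 on the wild-type-labelled arrays. The groups overlapped (-0.37 ± 0.36, adjusted p = 0.423), and it was called lower in all 3 scalings, at -1.13 to -1.21. Its dim second probe set gave -1.88. Cyp4v3 (0.57 ± 0.24, adjusted p = 0.0747, with a dim second probe set at -1.61), Cyp4f13, Cyp4a31 and Cyp4f39 did not pass. Cyp4a14, a target of the receptor Ppara, was under the filter, at 101 ± 70.6 on the knockout-labelled arrays and 57.9 ± 16 on the wild-type-labelled arrays (SD, n = 3 each). Cyp4a10 and Cyp19a1 were not analysed here.

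Cyp20a1, a conserved P450 with no established substrate, had the highest mean signal of the Cyp genes over the 6 arrays (890), although on each knockout-labelled array another Cyp gene was brighter. Its leading probe set gave 630, 266 and 494 on the knockout-labelled arrays and 1319, 1057 and 1576 on the wild-type-labelled arrays. It was 2.98-fold lower on the knockout-labelled arrays without overlap (log2 difference -1.58 ± 0.31, limma adjusted p = 0.00309). A second probe set, also above the filter, gave 357, 261 and 353 on the knockout-labelled arrays and 239, 292 and 374 on the wild-type-labelled arrays. The groups overlapped there (0.11 ± 0.28, adjusted p = 0.76 in the fit over all probe sets), and the mean of all 3 probe sets did not pass (-0.52, adjusted p = 0.149). The fall of Cyp20a1 therefore rests on 1 of its 3 probe sets.

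The promoters of both genes that fell are shown with the letters CCNCNCCC in capitals, a motif of Klf1-type zinc finger factors in which N is any base, read on both strands.
Cyp4f18 promoter, chr8:72009627-72009876, minus strand: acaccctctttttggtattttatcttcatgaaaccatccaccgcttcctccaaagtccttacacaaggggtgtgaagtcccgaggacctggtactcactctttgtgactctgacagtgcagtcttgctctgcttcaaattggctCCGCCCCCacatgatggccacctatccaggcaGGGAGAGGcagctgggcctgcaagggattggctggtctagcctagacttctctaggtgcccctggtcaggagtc
Cyp20a1 promoter, chr1:60343050-60343299, plus strand: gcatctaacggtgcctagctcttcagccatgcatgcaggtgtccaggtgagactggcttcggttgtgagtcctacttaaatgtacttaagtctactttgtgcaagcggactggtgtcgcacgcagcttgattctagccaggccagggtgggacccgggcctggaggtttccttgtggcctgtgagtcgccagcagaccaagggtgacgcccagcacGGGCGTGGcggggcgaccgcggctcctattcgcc
Cyp4f18 held 2 matches, which start 106 and 74 bases before the gene start, and Cyp20a1 held 1, which starts 34 bases before it. The motif is common: 48.5% of all genes with a promoter entry and 19 of 51 Cyp genes held it, so its presence does not set these genes apart.

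Steroid hormone synthesis belongs to the adrenal cortex and gonads, and its Cyp genes were dim here. Cyp11b1, the last enzyme of glucocorticoid synthesis, gave 156, 240 and 319 on the knockout-labelled arrays and 86.1, 19.8 and 52.8 on the wild-type-labelled arrays. It passed the test (log2 difference 2.35 ± 0.58, limma adjusted p = 0.00936), and the call was lost with quantile normalization and cyclic loess (adjusted p = 0.0817 and 0.0909). Without wild-type-labelled array 2 the difference was 1.76. It lay closest above the filter, at a mean log2 signal of 6.66, with Cyp1a1 next at 6.68, and Cyp2j6 and Cyp11b2 lay closest below it at 6.62 and 6.60. Of 4 steroidogenic markers Hsd3b1 and Mc2r rose while Star and Nr5a1 did not pass, where 27.9% of all genes tested rose. In each of the 3 scalings 1 of the 4, Hsd3b1, was called, where 8.48% to 17.9% of all genes rose. Their sum over 4 genes was 929.5 to 1232 on the knockout-labelled arrays and 348 to 439 on the wild-type-labelled arrays. Their part in the result was not tested.

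Cyp11a1, which cleaves the cholesterol side chain, had 3 probe sets under the filter that contradicted each other. One gave 171, 324 and 378 on the knockout-labelled arrays and 17.9, 19.6 and 9.66 on the wild-type-labelled arrays. Another gave 9.96, 13.3 and 11 on the knockout-labelled arrays and 197, 157 and 169 on the wild-type-labelled arrays. Each separated the groups, in opposite directions (log2 differences 4.20 and -3.93), and the third overlapped at 0.45. No direction can be given for this gene. Cyp21a1 did not pass (0.89 ± 0.47, adjusted p = 0.141), and Cyp17a1 was dim at 49.3 ± 11.9 on the knockout-labelled arrays and 14.9 ± 3.36 on the wild-type-labelled arrays (SD, n = 3 each).

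Besides Cyp2c39, which was tested and is described above, retinoic acid is handled by the Cyp26 genes. Both Cyp26 genes followed here were under the filter, as were the vitamin D genes Cyp2r1, Cyp27b1 and Cyp24a1. Cyp26a1, which breaks down retinoic acid, gave 303, 66.3 and 84.1 on the knockout-labelled arrays and 71.9, 92.3 and 65.2 on the wild-type-labelled arrays, so its higher mean came from 1 array. Cyp26b1, of the same function, stood at 36.5 ± 10.3 on the knockout-labelled arrays and 16.2 ± 5.93 on the wild-type-labelled arrays. For vitamin D, the 25-hydroxylase Cyp2r1 stood at 43.8 ± 34.6 on the knockout-labelled arrays and 49.4 ± 26.1 on the wild-type-labelled arrays. The activating Cyp27b1 stood at 46.5 ± 18.8 on the knockout-labelled arrays and 17 ± 10.8 on the wild-type-labelled arrays. The catabolic Cyp24a1 stood at 86.2 ± 36.6 on the knockout-labelled arrays and 40.5 ± 15.1 on the wild-type-labelled arrays (SD, n = 3 each throughout). Cyp46a1, the cholesterol hydroxylase of neurons, gave 187, 107 and 190 on the knockout-labelled arrays and 58.3, 21 and 36.9 on the wild-type-labelled arrays.

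The 63 probe sets under the filter shared their direction with other dim probe sets. Their median log2 difference was 1.07, beside 0.99 over all 18014 such probe sets. The knockout-labelled signals lay wholly above the wild-type-labelled ones for 18 of the 63, or 28.6%, where 33.9% of all probe sets under the filter did, and wholly below for 2, where 3.84% did. In the fit with no filter 10 of the 42 Cyp genes under it rose and 0 fell (limma, also 0 at an unadjusted p under 0.05), where 19.7% of all genes under the filter rose. They were Cyp17a1, Cyp2a12, Cyp2c50, Cyp2d10, Cyp2d26, Cyp2d40, Cyp2j6, Cyp3a44, Cyp46a1 and Cyp7b1. Over all 70 Cyp genes 26 rose and 2 fell in that fit, where 24.0% and 14.6% of all 18193 genes did. With 28.6% beside 33.9% and 10 of 42 beside 19.7%, the dim Cyp genes stood near the background. Cyp2d26 was 22.5-fold higher there (log2 difference 4.49 ± 0.82, limma adjusted p = 0.00291), with signals of 159, 73.4 and 696 on the knockout-labelled arrays and 9.97, 5.82 and 12.3 on the wild-type-labelled arrays. This gene too was named after its values were seen.

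**Figure D3:**
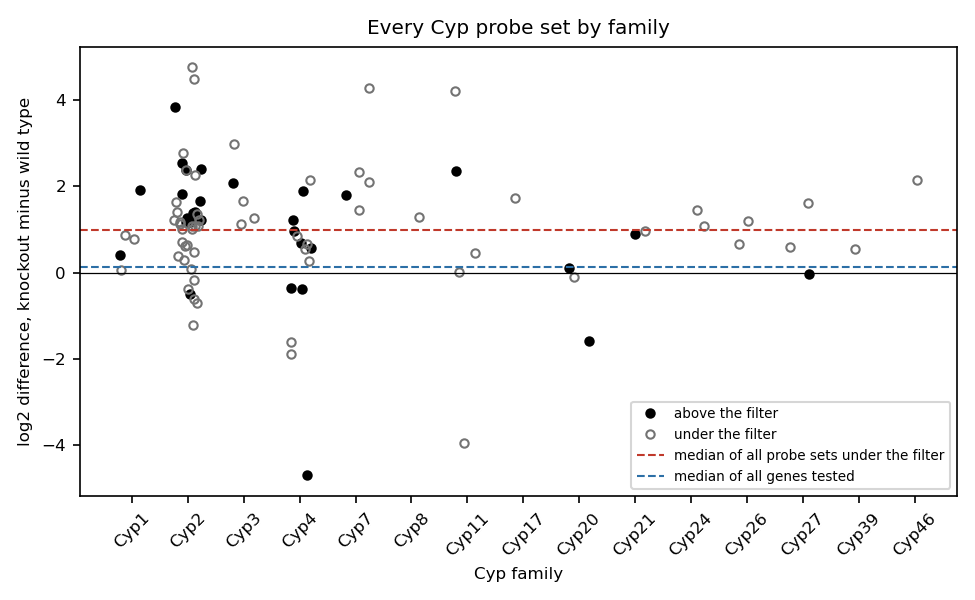
Log2 difference, knockout minus wild type (y axis), of each of the 93 Cyp probe sets by family (x axis), filled where the probe set is above the filter and open where it is under it, with points spread sideways for legibility. Dashed lines mark the median of all probe sets under the filter (0.99, red) and of all genes tested (0.14, blue). Family 2 holds the most points above 0, and the lowest point is Cyp4f18.

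Of the hepatocyte markers all 10 tested rose, as deposited and in all 3 scalings, with a median log2 difference of 3.95. The albumin gene Alb gave 29091 to 51414 on the knockout-labelled arrays and 2152 to 2459 on the wild-type-labelled arrays. The risen Cyp genes covered log2 differences of 1.16 to 2.53 and knockout-labelled means of at most 514. Of the other marker lists, 4 of 6 endothelial, 4 of 5 stromal, 5 of 7 macrophage and 4 of 4 megakaryocyte genes tested rose, beside 27.9% of all genes. In the 3 scalings 3 endothelial, 3 stromal, 4 to 6 macrophage and 4 megakaryocyte genes rose, and 1 to 2 macrophage genes fell. Of all genes 8.48% to 17.9% rose and 20.8% to 47.9% fell there. Summed stromal markers were 10849 to 16633 on the knockout-labelled arrays and 561 to 738 on the wild-type-labelled arrays. Summed endothelial markers were 3714 to 4843 on the knockout-labelled arrays and 1466 to 1776 on the wild-type-labelled arrays. Summed macrophage markers overlapped, at 10815 to 13718 on the knockout-labelled arrays and 10409 to 12493 on the wild-type-labelled arrays. Csf1r, the receptor of macrophage colony-stimulating factor, was the brightest in that list, at 4287 ± 537 on the knockout-labelled arrays and 8908 ± 847 on the wild-type-labelled arrays (SD, n = 3 each). It fell by 1.06, and Cd68 gave -0.16 and did not pass. The other 5 tested rose: Marco by 7.21, Mrc1 by 2.43, Cd5l by 1.90, Vcam1 by 1.81 and Adgre1 by 0.93. C1qa was under the filter, at means of 772 and 10.5 on the knockout-labelled and wild-type-labelled arrays. The part of these cells in the Cyp results was not tested.

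A list of electron donors and associated proteins of P450 enzymes, the latter being Pgrmc1 and Pgrmc2, had 9 tested genes. Of these 2 rose, 2 fell and 5 did not pass, beside the 27.9% and 20.8% of all genes. Cyb5a, microsomal cytochrome b5, gave 6533, 6405 and 6329 on the knockout-labelled arrays and 3260, 2959 and 3896 on the wild-type-labelled arrays (log2 difference 0.94 ± 0.15, limma adjusted p = 0.00113). Cyb5r2, a cytochrome b5 reductase, rose by 2.63, while its relative Cyb5r4 fell by 0.90 and Cyb5b, the mitochondrial cytochrome b5, fell by 0.73. Fdx1, the ferredoxin of mitochondrial P450 enzymes, gave -0.11 ± 0.17 and did not pass, and its sign changed with the scaling. Cyb5a is bright in the red cell lineage, and its signals were above those of all 93 Cyp probe sets on each array. The call of Cyb5b was lost with quantile normalization and cyclic loess (adjusted p = 0.0724 and 0.0741) and that of Cyb5a after median centring (0.726). Median centring also added Fdx1 (-0.92, adjusted p = 0.00672), Pgrmc1 and Pgrmc2 to the lower calls, so the list then had 1 higher and 5 lower. In that scaling 8.48% of all genes were called higher and 47.9% lower, so many lower calls are common to all genes there. P450 reductase, gene symbol Por, was not analysed here.

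Of 14 tested receptors and factors that regulate Cyp genes 6 rose and 3 fell, beside 27.9% and 20.8% of all genes. After median centring 4 rose and 5 fell, beside 8.48% and 47.9% of all genes. The nuclear receptors Nr1h3, an oxysterol sensor, Nr5a2, which drives Cyp7a1, and Nr1i2, the xenobiotic sensor of Cyp3a11, rose by 2.05, 2.28 and 1.96 on the log2 scale. Rarb, a retinoic acid receptor, rose by 1.53 and Ahr, the aryl hydrocarbon receptor, by 0.78. Cebpb and Cebpa, factors of both hepatocytes and myeloid cells, fell by 1.68 and by 1.32, and Rxrb fell by 0.94. The calls of Ahr (adjusted p 0.426 to 0.924, with a difference of -0.035 after median centring) and Rarb (0.124 to 0.152) were lost in all 3 scalings. The xenobiotic sensor Nr1i3 and the bile acid sensor Nr1h4 were under the filter.

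Of 21 tested conjugation enzymes, which act on P450 products, 12 rose and 2 fell, beside 27.9% and 20.8% of all genes. Gsta4, a glutathione transferase for lipid aldehydes, rose by 3.72, Gstt1 by 2.31 and Ephx2, the soluble epoxide hydrolase, by 1.67. Mgst1 and Mgst2, membrane-bound glutathione transferases, fell by 1.99 and by 2.05. These 5 genes were called the same way in all 3 scalings, while the 12 became 4 to 8 and the 2 became 5 after median centring. In the 3 scalings 8.48% to 17.9% of all genes rose, and after median centring 47.9% fell. Both P450 genes outside the symbol rule that were tested rose. Tbxas1, the thromboxane synthase of platelets and macrophages, gave 692, 1006 and 781 on the knockout-labelled arrays and 137, 206 and 163 on the wild-type-labelled arrays (log2 difference 2.30 ± 0.25). Cyp51, the lanosterol demethylase of cholesterol synthesis, gave 954, 689 and 685 on the knockout-labelled arrays and 305, 326 and 304 on the wild-type-labelled arrays (1.30 ± 0.21), which did not pass after median centring (0.48, adjusted p = 0.142). Both were brighter on the knockout-labelled arrays than any risen Cyp gene of the rule by mean signal.

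**Figure D4:**
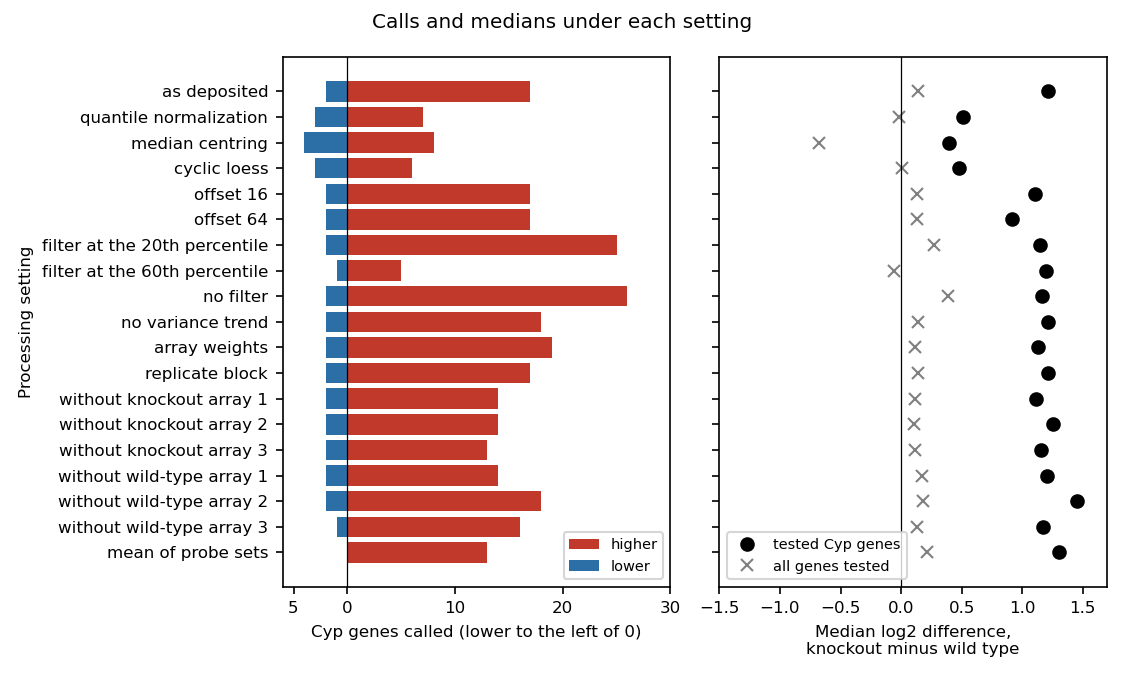
Number of Cyp genes called (left, lower calls drawn to the left of 0) and median log2 difference, knockout minus wild type (right), of the tested Cyp genes and of all genes tested, for each processing setting (y axis). The 17 higher calls as deposited become 6 to 8 under the 3 rescalings, where 8.48% to 17.9% of all genes are called higher. The Cyp median stays above 0 in every setting drawn.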

How the data were processed

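The submitters' processing notes name MAS5 and the Affymetrix Expression Console for the deposited intensities, which are linear and number 1 for each probe set of an array; no versions were found in the sources used here. Each array had a trimmed mean of 500 (2% off each end), which leaves medians free to differ. Before log2 was taken of the deposited intensities, 303 values were raised to a floor of 1. Of 45101 probe sets 34958 list 1 gene, 932 several and 9211 are not listed. Symbols were updated through Entrez identifiers, which changed 0 Cyp symbols. The 4 Cyp probe sets that list several genes were left out.

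The brightest probe set by mean log2 stood for its gene, and genes whose mean lay below the 40th percentile over all probe sets were left out. A two-sided limma test (version 3.58.1, R 4.3.3, eBayes with trend) set 3 arrays against 3, and p-values were adjusted after Benjamini-Hochberg across the 12799 genes, with a threshold of 0.05. Differences are knockout minus wild type. A second fit covered all 27023 probe sets above the filter. The fit was also run on simulated data with as many raised as lowered genes. Those data held no shift of whole arrays or with brightness, so the run does not check the calls against such shifts. Precision is limited by 3 arrays per group, and no array pair was identical. Promoters are RefSeq's, build GRCm38.p6, matched by gene identifier for 51 of 70 genes. Named were all called Cyp genes, those with a mean signal of 500 or more, a fixed set, genes whose tested probe sets oppose each other, those beside the filter, and leading members of fixed lists. The members and lists were chosen with earlier results of these data known. Figures were drawn with matplotlib 3.10.9.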

Additional observations from a re-analysis of the deposited data

How the results depend on the processing

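Each result was recomputed under 18 alternatives. Of the 19 Cyp genes called, 5 (Cyp2c68, Cyp2c70, Cyp3a11, Cyp4f18 and Cyp7a1) were called in the same direction in every alternative in which they were tested. Cyp2c70 and Cyp3a11 were tested in all 18, Cyp2c68 in 17, Cyp7a1 in 16 and Cyp4f18 in 15. Cyp2c68 and Cyp7a1 passed the filter only through the knockout-labelled arrays, and Cyp4f18 only through the wild-type-labelled ones. The count is therefore a description and not support for these changes. The 17 higher Cyp genes became 7 with quantile normalization, 8 with median centring and 6 with cyclic loess. There 17.6%, 8.48% and 17.9% of all genes were higher. They became 5 with the filter at the 60th percentile, where 8 Cyp genes were tested and 22.2% of all genes were higher. With no filter they became 26, where 70 Cyp genes were tested and 24% of all genes were higher. The 2 lower became 4 with median centring, where 47.9% of all genes were lower. With the filter at the 60th percentile they became 1, where 2469 of 9597 genes were lower. With the mean of probe sets they became 0 (limma, also 0 at an unadjusted p under 0.05). In that setting 1923 of 11355 genes were lower, and Cyp4f18 was under the filter. For probe sets, the 18 higher became 5 with quantile normalization, or 16.7% beside 15.5% of all probe sets. With cyclic loess they became 5, or 16.7% beside 15.8%, so both shares were near those of all probe sets. With median centring they became 8, or 26.7% beside 7.77%. With the filter at the 60th percentile they became 5, or 55.6% beside 23.7%. The 2 lower became 4 with median centring, where 10273 of all 27023 probe sets were lower. They became 1 with the filter at the 60th percentile, where 3828 of 18007 were lower. The median log2 difference of tested Cyp genes, 1.21, became 0.51 with quantile normalization, 0.40 with median centring, 0.48 with cyclic loess, 1.10 and 0.91 with offsets of 16 and 64, and 1.30 with the mean of probe sets.

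Without 1 array, 13 to 18 Cyp genes were higher (46.4% to 66.7%), where 21.5% to 26.7% of all genes were. Lower were 1 to 2 Cyp genes, where 2031 to 2783 of all genes were. Of the Cyp probe sets 10 to 18 were higher (34.5% to 62.1%), where 18.3% to 27% of all probe sets were. Lower were 1 to 2, where 3093 to 4449 of all probe sets were. Tested were 12744 to 12840 genes and 27017 to 27024 probe sets. The Cyp median was 1.11 to 1.45. The 18 higher probe sets became 11 without knockout-labelled array 2 and 10 without knockout-labelled array 3, beside 18.3% and 19% of all probe sets. Without wild-type-labelled array 3 Cyp4f18 was under the filter. With the replicate block 17 Cyp genes were higher and 2 lower, as without it, and no Cyp call changed. Of all 12799 genes 27.9% were higher and 2706 were lower there. Deviations of arrays that share a replicate number correlated by 0.007 to 0.0461, and those of arrays with different numbers by -0.0414 to 0.0176. All are small, and whether arrays of the same number were handled together was not tested. Cyp1a1 changed sign with quantile normalization (-0.41), median centring (-0.41), cyclic loess (-0.49), array weights (-0.20) and without wild-type-labelled array 3 (-0.085), and without 1 array it ranged from -0.085 to 1.24. Cyp27a1 changed sign with array weights (0.21) and without knockout-labelled array 1 (0.10), knockout-labelled array 2 (0.091) or wild-type-labelled array 3 (0.21), and without 1 array it ranged from -0.27 to 0.21. The cause of these changes was not tested, apart from the number of genes each filter left.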
